A study of Homo sapiens with 6 samples.

Results

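The genes described here are the long intergenic noncoding RNA (LINC) genes that were expressed in 143B cells, a human osteosarcoma line. They were chosen by name and by measured abundance: genes listed as noncoding, with a symbol of LINC and a number, and a mean of at least 50 raw counts over the 6 libraries. Of 756 such LINC genes among 22481 genes in the count table, 106 met that minimum. LINC02806 was also singled out beforehand for its large rise, so its own difference is given as a description without a p-value. It is still counted among the LINC genes called higher, in each such count below, and in the summed share of counts. The wells of 1 plate were seeded with 143B cells, grown for 24 h and divided at random. In the control group 3 wells were grown for a further 24 h, and in the celastrol group celastrol, a plant triterpene, was added to 3 wells for that time. No source used here gives the celastrol dose or says whether control wells had a vehicle. Each library is 1 well of the same line on the same plate, so p-values measure the spread between wells, which may be technical.

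LINC genes are transcribed by RNA polymerase II from stretches between protein-coding genes, and most of their RNAs are capped, spliced and polyadenylated like messenger RNA but are not translated. They are usually less abundant than messenger RNAs, and many remain in the nucleus, where the RNA exosome degrades part of them. The Integrator complex ends transcription early at many noncoding and coding genes. For most LINC genes the number in the symbol is only a catalogue entry and no function is established. Some are known by later names: in RefSeq LINC00888 is SNHG33, a small nucleolar RNA host gene, and LINC00461 is MIR9-2HG, which holds the hairpin of the microRNA MIR9-2.

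Libraries held 38.4 to 39.5 M counts and 18778 to 18948 detected genes. The bone lineage genes RUNX2 (17.3 to 35.8 CPM, counts scaled to the library total with TMM factors) and SPARC (304 to 414 CPM) were read in all 6 libraries, while SP7, BGLAP and COL1A2 were at 0 to 6 counts. RUNX2 was lower in every celastrol library (17.3 to 18.7 CPM) than in every control library (30.5 to 35.8 CPM). TK1, whose enzyme activity the line is known to lack, had 23.6 to 42.9 CPM, which says nothing of the enzyme. Of the epithelial markers, CDH1 and KRT19 were at 0 to 2 counts and EPCAM at 5.71 to 7.14 CPM. PTPRC, CDH5 and SOX10 were at 0 to 6 counts, and the neural gene MAP2 at 1.92 to 4.03 CPM. Mitochondrially encoded genes took 4.47% to 4.68% of counts with celastrol and 5.49% to 5.82% in controls. The part of these differences in the LINC results was not tested.

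With celastrol, 26 of the 106 LINC genes rose, 20 fell and 60 did not pass the test. Calls came from edgeR (quasi-likelihood, Benjamini-Hochberg adjusted over all 15387 genes tested) at an adjusted p under 0.05, and all 106 LINC genes were among those tested. The share called was 43.4%, against 48.4% of all genes tested, which include genes under a mean of 50 counts. With the same minimum of 50 counts, 45.5% of other noncoding genes and 54.4% of coding genes were called. The LINC share was thus near that of other noncoding genes and below that of coding genes, which were more abundant. The median mean count was 150 for LINC genes and 1281 for these coding genes. At a mean of 50 to 100 counts, 34.3% of LINC genes and 33.5% of coding genes were called. At 100 to 300 counts the shares were 47.5% and 49.6%, and at 300 counts or more 48.4% and 56.2%. The risen LINC genes were 24.5% of the 106, against 23.6% of all genes, and the fallen ones 18.9%, against 24.8%. With scaling by library size alone, 4170 of all genes were higher and 3382 lower, in place of 3634 and 3815, and 27 and 18 of the LINC genes. The median log2 fold change was -0.0019 over the LINC genes and -0.00024 over all genes tested. In bulk RNA, fewer cells expressing a gene and less of its RNA in each cell cannot be told apart.

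**Figure D1:**
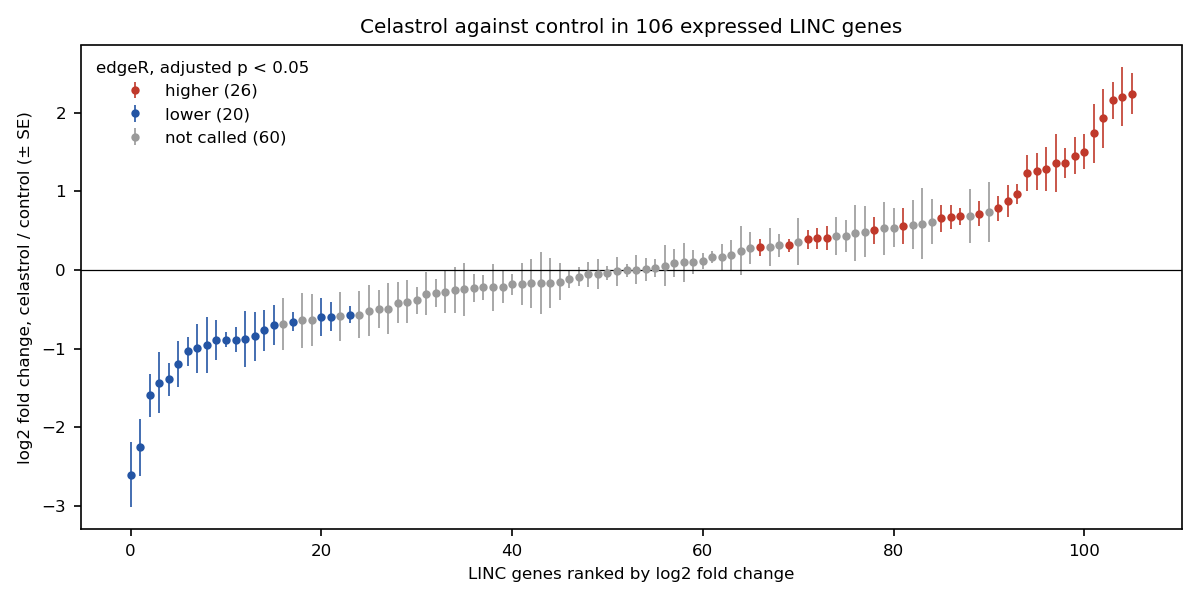
Log2 fold change (celastrol over control, y axis) of the 106 LINC genes in rank order (x axis), with bars for the standard error and colours for the edgeR call. Values ran from -2.60 to 2.24, with 26 genes called higher, 20 called lower and 60 not called, and called and uncalled genes alternate at moderate values on both sides.

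Among the LINC genes, 29 had all 3 celastrol libraries above all 3 control libraries, and 29 had them all below. Over all genes tested the groups did not overlap in 56.9%, and among LINC genes in 54.7%. The 2 directions took 28.4% and 28.6% of all genes. Changes of at least 2-fold were called in 12 LINC genes that rose and 7 that fell. A log2 fold change of at least 1 in size was found in 17.9% of the LINC genes and in 11.6% of all genes tested. By abundance, 22.9% of LINC genes and 24.0% of all genes reached that size at a mean of 50 to 100 counts, 25% and 19.2% at 100 to 300 counts, and 3.23% and 4.37% at 300 counts or more. The median standard error of the log2 fold change was 0.24 for the LINC genes and 0.11 for all genes tested.

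Calls were also counted by abundance. Of 35 LINC genes with a mean of 50 to 100 counts, 4 rose and 8 fell, of 40 with 100 to 300 counts, 11 rose and 8 fell, and of 31 with at least 300 counts, 11 rose and 4 fell. Over all genes tested, calls in the lowest of these ranges also leaned downward, with 11.7% higher and 22.6% lower. At 100 to 300 counts 19.5% of all genes were higher and 29.6% lower, and at 300 counts or more 29% and 27.2%. No test of the difference between LINC and other genes was made. The mean of at least 50 was reached through 1 group only in 15 LINC genes, whose inclusion therefore depends on the difference itself. Of these, LINC01852, LINC02904 and LINC00638 were called higher, LINC01970, LINC00663, LINC00707, LINC01315, LINC01569 and LINC01001 lower. Among the 91 with a mean of at least 50 in both groups, 23 rose and 14 fell. That is 40.7% called, against 48.4% of all genes tested, to which this minimum was not applied.

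**Figure D2:**
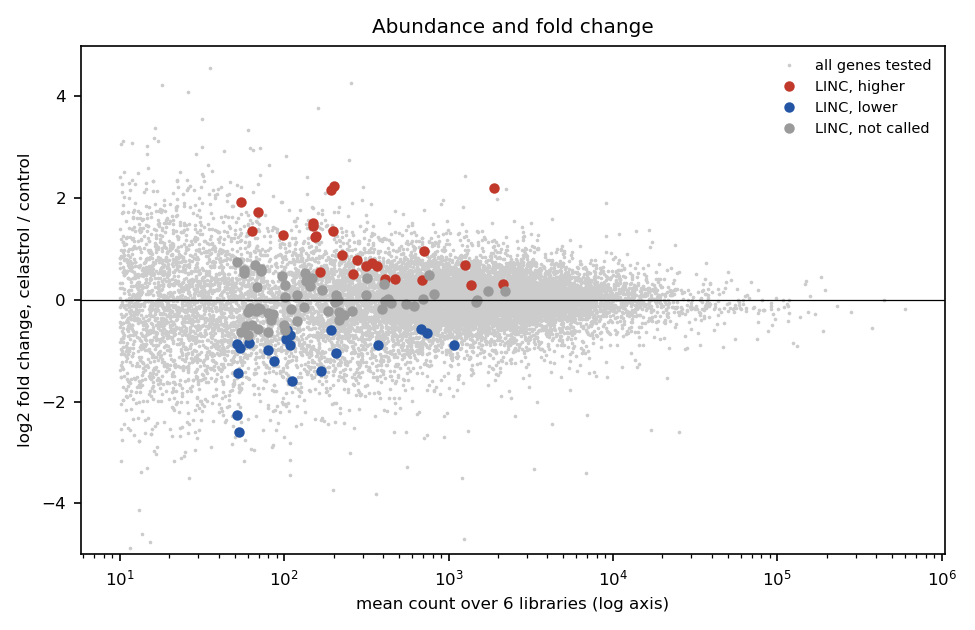
Mean raw count over 6 libraries (x axis, log scale) and log2 fold change with celastrol (y axis) of the 106 LINC genes, coloured by edgeR call, over grey points for the other genes tested with a mean of at least 10 counts (4 of 15240 points lie beyond the axis). LINC genes lay mostly under 1000 counts, where grey points also spread widely, and LINC02806 stood at 1884 counts with a log2 fold change of 2.2.

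The 3 LINC genes just inside the minimum were LINC00240, LINC00663 and LINC01569, with mean counts of 51.3, 51.7 and 51.8. Just outside lay LINC02610, LINC01301 and LINC02615, with 49.0, 45.7 and 44.0. The log2 fold changes of the 3 inside were 0.74, -2.26 and -0.88, and of the 3 outside -0.03, -0.83 and 0.23.

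LINC genes together were a small part of each library. They took 0.0985%, 0.0930% and 0.0995% of counts in the celastrol libraries and 0.0888%, 0.0797% and 0.0766% in the controls. Every celastrol library was above every control library, with means of 0.0970% ± 0.0035 and 0.0817% ± 0.0063 (SD over 3 wells). Without LINC02806 the means were 0.0890% ± 0.0018 and 0.0800% ± 0.0058. These sums are descriptions without a p-value. LINC02806 was singled out for its rise, and 15 LINC genes met the count minimum through 1 group only.

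Levels between genes were compared only in FPKM, the deposited values per kilobase of gene length. In control wells the median LINC gene had 1.85 FPKM, 34 were under 1 FPKM and 17 at 5 FPKM or more. The highest control means belonged to LINC01357 (28.4 ± 2.62 FPKM, SD, n = 3), LINC02381 (14.8 ± 0.56), LINC00667 (13.2 ± 0.60), LINC01278 (12.1 ± 0.87), LINC00839 (10.6 ± 1.42) and LINC00963 (8.32 ± 0.88). LINC00667 and LINC01278 in this order lay closer together than the sum of their SDs, as did LINC01278 and LINC00839, and LINC00839 and LINC00963. The sixth place was not separated from LINC00339 (8.30 ± 1.94 FPKM), LINC00467 (8.14 ± 0.90 FPKM) and LINC01138 (7.93 ± 0.48 FPKM). The first place of LINC01357 rests on a gene length of only 271 bases in the deposited values, shorter than the average insert, and its count was moderate (7.82 CPM in controls). The median length of the LINC genes was 2404.5 bases, against 4414 for coding genes with the same minimum of counts.

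Of these 6 abundant RNAs, LINC00839 rose and LINC02381 fell, and 4 did not pass the test. LINC00839 had 37.8, 37.1 and 44.2 CPM with celastrol and 28.0, 21.5 and 24.5 CPM in controls, with no overlap (log2 fold change 0.68 ± 0.11 SE, edgeR adjusted p = 4.36e-05). LINC02381, which lies beside the HOXC genes on chromosome 12, had 14.3, 13.2 and 15.1 CPM with celastrol and 20.3, 20.7 and 22.1 CPM in controls (-0.57 ± 0.11, edgeR adjusted p = 0.0004). Here too the groups were apart, in the opposite direction. LINC00667 was at 0.17 ± 0.07 (adjusted p = 0.0695), and passed the threshold in 5 of 16 alternative analyses. LINC01278 (-0.04), LINC00963 (0.02) and LINC01357 (0.10) had overlapping groups. LINC01605, chosen after its values were seen, had the highest control FPKM of the other LINC genes that fell (6.19 ± 0.46 FPKM), with 18.0, 20.4 and 20.1 CPM against 38.6, 33.3 and 36.3 CPM in controls, a change of -0.89 ± 0.10 (edgeR adjusted p = 1.07e-06). Every celastrol library was near the same level, far below the lowest control.

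LINC02806 lies on chromosome 1 (148279268 to 148291861, plus strand, RefSeq on GRCh38.p14) in the region of the NBPF gene family. It had 83.3, 59.3 and 92.8 CPM with celastrol and 24.6, 11.0 and 15.5 CPM in controls. The lowest celastrol library was above the highest control, and the spread was wide within both groups. Its means of 78.5 ± 17.3 and 17.0 ± 6.91 CPM (SD, n = 3) differ 4.61-fold in the edgeR estimate (log2 fold change 2.2 ± 0.37 SE). Across 16 alternative analyses that value ran from 1.76 to 2.73. In FPKM it went from 1.71 ± 0.70 in controls to 8.11 ± 1.76. Its gene model was not matched to the annotation used for copies and shared exons, and the region holds repeated gene family members, so how reads were divided there was not checked. LINC01138, another LINC gene on the opposite strand 141097 bases away, was at -0.12 and did not pass the test. The window from 250 bases before to 50 after its RefSeq start, at chr1:148279018-148279317 on the plus strand, is printed because LINC02806 had the largest rise in CPM among the LINC genes. Capitals mark matches to the motifs searched.
LINC02806: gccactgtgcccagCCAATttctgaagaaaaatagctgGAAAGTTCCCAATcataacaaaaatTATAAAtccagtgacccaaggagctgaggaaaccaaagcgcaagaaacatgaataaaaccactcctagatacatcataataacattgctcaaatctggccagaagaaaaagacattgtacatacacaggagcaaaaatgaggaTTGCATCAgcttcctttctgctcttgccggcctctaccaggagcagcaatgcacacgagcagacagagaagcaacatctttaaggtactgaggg
The matches, counted from the start, are a CCAAT box (CCAAT) at -236 and -204, a heat shock element motif (GAANNTTC) at -212, a TATA box (TATAAA) at -187 and, on the reverse strand at -44, the composite element of C/EBP and ATF factors (TGATGNAA), which ATF4 is known to bind.

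LINC00680 and LINC02709 rose by about as much from a lower control level per length (0.711 ± 0.31 and 0.762 ± 0.24 FPKM). LINC00680, on chromosome 6 (57945834 to 57961446), had 8.76, 7.57 and 9.03 CPM with celastrol and 2.36, 2.08 and 0.909 CPM in controls. Its groups were far apart (log2 fold change 2.24 ± 0.26, edgeR adjusted p = 2.99e-06). LINC02709, on chromosome 11 (9754770 to 9759533), had 8.59, 6.15 and 9.11 CPM against 2.26, 1.92 and 1.17 CPM (2.15 ± 0.24, edgeR adjusted p = 1.23e-06). The start window of LINC02709, at chr11:9759484-9759783 on the minus strand (RefSeq, GRCh38.p14), is printed because it holds, at -243, an AP-1 motif (TGANTCA) inside an antioxidant response element core (TGACNNNGC), the motifs of JUN and FOS factors and of NRF2. Capitals mark that stretch, which both motifs share. The antioxidant core was in 2 of 19 windows of LINC genes that rose, 4 of 16 of those that fell and 13.3% of all windows. A part of these motifs in the rise was not tested.
LINC02709: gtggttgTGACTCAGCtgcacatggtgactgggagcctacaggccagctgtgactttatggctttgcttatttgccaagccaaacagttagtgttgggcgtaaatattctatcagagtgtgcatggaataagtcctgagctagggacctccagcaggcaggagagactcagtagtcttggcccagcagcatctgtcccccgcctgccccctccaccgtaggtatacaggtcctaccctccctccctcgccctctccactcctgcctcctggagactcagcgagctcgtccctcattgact

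The next 6 rises were smaller or rested on fewer counts. LINC00638, LINC01852 and LINC02904 met the count minimum through the celastrol group only, so their inclusion depends on the rise itself. LINC00638, known in RefSeq as VESTAR, had 2.41, 2.2 and 1.95 CPM with celastrol and 0.416, 0.500 and 0.805 CPM in controls (1.93 ± 0.37, edgeR adjusted p = 0.000338). LINC01852 had 1.94, 4.13 and 2.03 CPM against 1.04, 0.553 and 0.831 CPM (1.74 ± 0.37, adjusted p = 0.000893). The second celastrol library stood above the other two there, but no library overlapped the controls. LINC01061 rose from 1.99 ± 0.44 to 5.65 ± 0.47 CPM (1.5 ± 0.22, adjusted p = 2.13e-05) and LINC01963 from 2.84 ± 0.53 to 7.29 ± 0.77 CPM (1.36 ± 0.19, adjusted p = 1.7e-05). LINC00565, named SWINGN in RefSeq and known as a partner of the SWI/SNF chromatin remodelling complex, had 6.17, 4.05 and 6.57 CPM against 2.47, 1.79 and 1.87 CPM (1.45 ± 0.24, adjusted p = 6.29e-05). All of these were separated from the controls in every library. LINC02904, an antisense gene named LY6S-AS1 in RefSeq, had 3.16, 2.15 and 1.70 CPM against 1.35, 0.737 and 0.649 CPM (1.35 ± 0.37, adjusted p = 0.00554), and its call was lost without celastrol replicate 1 (edgeR adjusted p = 0.0552).

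**Figure D3:**
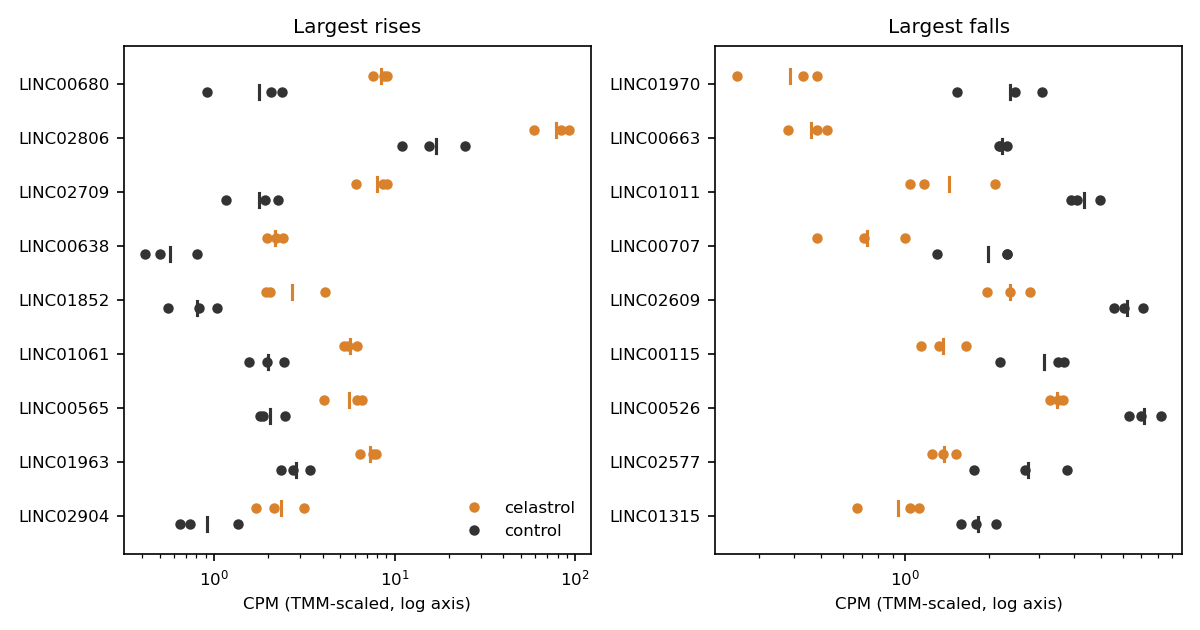
TMM-scaled CPM (x axis, log scale) of the 9 LINC genes with the largest called rises and the 9 with the largest called falls; each point is 1 library and each short bar a group mean. The 3 celastrol points lie apart from the 3 control points in all 18 genes, and LINC02806 reaches the highest CPM.

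LINC01970 had the largest fall. It lies on chromosome 17 (82290046 to 82292814, minus strand) and had 0.249, 0.481 and 0.431 CPM with celastrol against 1.53, 2.47 and 3.09 CPM in controls. The highest celastrol library was well below the lowest control (log2 fold change -2.60 ± 0.41, edgeR adjusted p = 4.89e-05), on means of 15.3 and 90.7 raw counts. LINC01970 thus met the count minimum through the controls only, so its inclusion depends on the fall itself. Its start window, at chr17:82292765-82293064 on the minus strand (RefSeq, GRCh38.p14), is shown as that of the gene with the largest fall, with an E-box (CACGTG) at -39 and CCAAT boxes at -21, -6 and, on the reverse strand, -56, in capitals.
LINC01970: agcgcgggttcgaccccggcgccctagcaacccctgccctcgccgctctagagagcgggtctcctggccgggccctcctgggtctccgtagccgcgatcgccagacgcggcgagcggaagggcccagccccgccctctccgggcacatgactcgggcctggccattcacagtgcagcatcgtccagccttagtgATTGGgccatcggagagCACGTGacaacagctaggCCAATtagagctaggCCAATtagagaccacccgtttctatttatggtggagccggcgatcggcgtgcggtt

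LINC00663 fell by nearly as much, from 84, 82 and 89 raw counts in controls to 21, 15 and 19 with celastrol (-2.26 ± 0.36, edgeR adjusted p = 6.01e-05). Its libraries agreed closely within each group. LINC01011 had 1.17, 2.1 and 1.04 CPM against 3.92, 4.13 and 4.99 CPM (-1.60 ± 0.28, adjusted p = 0.000124), and LINC02609 had 1.97, 2.38 and 2.79 CPM against 5.56, 7.08 and 6.08 CPM (-1.39 ± 0.21, adjusted p = 2.55e-05). LINC01011 shares 10.4% of its exon bases with its neighbour NQO2 on the same strand, and NQO2, a quinone reductase gene, itself rose (0.58, adjusted p = 0.000313). LINC00707, an RNA described in several carcinomas, had 0.996, 0.481 and 0.710 CPM against 1.30, 2.32 and 2.31 CPM (-1.43 ± 0.39, adjusted p = 0.0055), with control replicate 1 nearest the celastrol libraries. LINC02577 (-0.99 ± 0.31, adjusted p = 0.0135) and LINC01315 (-0.95 ± 0.35, adjusted p = 0.0323) were the smallest of the 9 largest falls. LINC00663, LINC00707 and LINC01315 met the count minimum through the controls only, so their inclusion depends on the fall itself. The call of LINC02577 was lost without control replicate 2 (adjusted p = 0.121), and that of LINC01315 without celastrol replicate 1 (0.125), without control replicate 3 (0.109) and without both celastrol replicate 2 and control replicate 1 (0.0552).

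The other LINC genes that rose, of which examples were chosen after their values were seen, changed by 0.29 to 1.28 on the log2 scale. LINC01293 had 4.06, 2.35 and 4.19 CPM with celastrol and 1.46, 1.32 and 1.58 CPM in controls (1.28 ± 0.28, edgeR adjusted p = 0.000969). LINC00641 had 5.70, 5.52 and 5.20 CPM against 3.01, 1.66 and 2.31 CPM (1.23 ± 0.23, adjusted p = 0.00022), with celastrol libraries close together and controls spread. LINC00857 rose from 4.06 ± 1.17 to 7.47 ± 0.55 CPM (0.88 ± 0.20) and LINC01426 from 6.65 ± 1.25 to 10.9 ± 0.26 CPM (0.72 ± 0.16). The smallest called rise without overlap was that of LINC02693, with 63.3, 54.4 and 65.9 CPM against 51.9, 50.2 and 45.6 CPM (0.31 ± 0.09).

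The other LINC genes that fell, with examples chosen in the same way, changed by -0.89 to -0.57. LINC00938 had 8.51, 6.33 and 5.35 CPM with celastrol and 12.7, 12.9 and 11.8 CPM in controls (-0.89 ± 0.16, edgeR adjusted p = 0.000239), while ARID2, a chromatin remodelling gene that starts 1744 bases away, rose by 0.20 (adjusted p = 0.0377). LINC02210 had 15.4, 14.1 and 15.1 CPM against 20.9, 27.4 and 21.9 CPM (-0.66 ± 0.12, adjusted p = 0.000204). All celastrol libraries of both genes were below all controls. LINC01003 (-0.77), LINC01001 (-0.84) and LINC01881 (-0.60) were also called, and near-identical copies cover 94.8% of LINC01001 and 55.2% of LINC01881. The 60 LINC genes that were not called lay between -0.69 (LINC01786) and 0.74 (LINC00240).

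Some LINC genes with a described role in cancer or development were among the smaller changes, and they were chosen after their values were seen. LINC00941, described as promoting metastasis in carcinomas, rose from 5.23 ± 0.27 to 9.0 ± 0.97 CPM (0.78 ± 0.16, edgeR adjusted p = 0.000508). LINC00673 rose from 5.55 ± 0.91 to 7.87 ± 0.81 CPM (0.50 ± 0.17, adjusted p = 0.0212). LINC01116, whose nearest coding start is that of MTX2 at 368167 bases, rose from 7.32 ± 1.71 to 11.5 ± 1.02 CPM (0.66 ± 0.17, adjusted p = 0.00363). However, 12.5% of the exon bases of LINC01116 lie opposite LINC01117. LINC00472, described as a tumour suppressor in breast cancer, fell from 3.48 ± 0.73 to 2.14 ± 0.35 CPM (-0.70 ± 0.25, adjusted p = 0.0268). The snoRNA host LINC00888 rose from 6.20 ± 0.47 to 9.87 ± 1.26 CPM (0.67 ± 0.16, adjusted p = 0.00166). LINC00461, the MIR9-2 host, had means of 69.0 counts with celastrol and 44.3 in controls and did not pass the test (0.59, adjusted p = 0.295).

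Pairs of LINC genes that start close together on opposite strands had different values, and these pairs too were picked after their values were seen. On chromosome 1, LINC01128 (827591 to 859446, plus strand) and LINC00115 (826206 to 827522, minus strand) are separated by 68 bases. LINC01128 had 25.4, 22.4 and 23.6 CPM with celastrol and 10.2, 12.5 and 14 CPM in controls, and rose (0.96 ± 0.13, edgeR adjusted p = 6.73e-06). LINC00115 had 1.64, 1.32 and 1.14 CPM against 2.18, 3.53 and 3.69 CPM, and fell (-1.19 ± 0.29, edgeR adjusted p = 0.00245). The groups were apart in both genes, in opposite directions. Exons of LINC01128 lie opposite 6.99% of the exon bases of LINC00115 in GENCODE, and near-identical copies elsewhere in the genome cover 49.6% of it, so its counts are uncertain.

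On chromosome 18 the starts of LINC00667 (plus strand) and LINC00526 (minus strand) are 71 bases apart. LINC00667 had 58.9, 59.4 and 61.3 CPM with celastrol and 55.8, 52.3 and 51.9 CPM in controls. LINC00526 had 3.66, 3.29 and 3.53 CPM against 8.21, 6.32 and 6.96 CPM, and fell (-1.04 ± 0.18, edgeR adjusted p = 0.000128). The more abundant RNA of the pair was slightly above its controls in every celastrol library without passing the test (0.17), and the scarcer one was below them. Exons of LINC00667 lie opposite 41.2% of the exon bases of LINC00526 in GENCODE, and the sources used here do not say whether counting used the strand. Their start windows, chr18:5237850-5238149 on the plus strand and chr18:5237980-5238279 on the minus strand (RefSeq, GRCh38.p14), overlap and are printed to show the shared region from both sides, with the 1 motif match, a CCAAT box at -134 of LINC00667, in capitals.
LINC00667: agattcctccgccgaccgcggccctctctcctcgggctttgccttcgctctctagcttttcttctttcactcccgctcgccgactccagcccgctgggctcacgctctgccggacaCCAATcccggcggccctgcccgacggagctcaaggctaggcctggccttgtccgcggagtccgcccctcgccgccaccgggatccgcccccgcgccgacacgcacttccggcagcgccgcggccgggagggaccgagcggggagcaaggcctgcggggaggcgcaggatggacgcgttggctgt
LINC00526: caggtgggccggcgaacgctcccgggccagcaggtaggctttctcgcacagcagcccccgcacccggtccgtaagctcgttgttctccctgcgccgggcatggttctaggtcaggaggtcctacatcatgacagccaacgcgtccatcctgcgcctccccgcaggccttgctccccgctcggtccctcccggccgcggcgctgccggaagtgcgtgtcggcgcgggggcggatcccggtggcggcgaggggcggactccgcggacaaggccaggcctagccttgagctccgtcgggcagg
LINC01357 and LINC01356, which overlap in opposite orientation on chromosome 1, were at 0.10 ± 0.15 (adjusted p = 0.618) and -0.59 ± 0.18 (edgeR adjusted p = 0.0127). LINC01356 had 4.08, 3.92 and 3.83 CPM against 5.43, 5.42 and 7.01 CPM in controls, with no overlap. The difference in response within a pair was not tested.

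**Figure D4:**
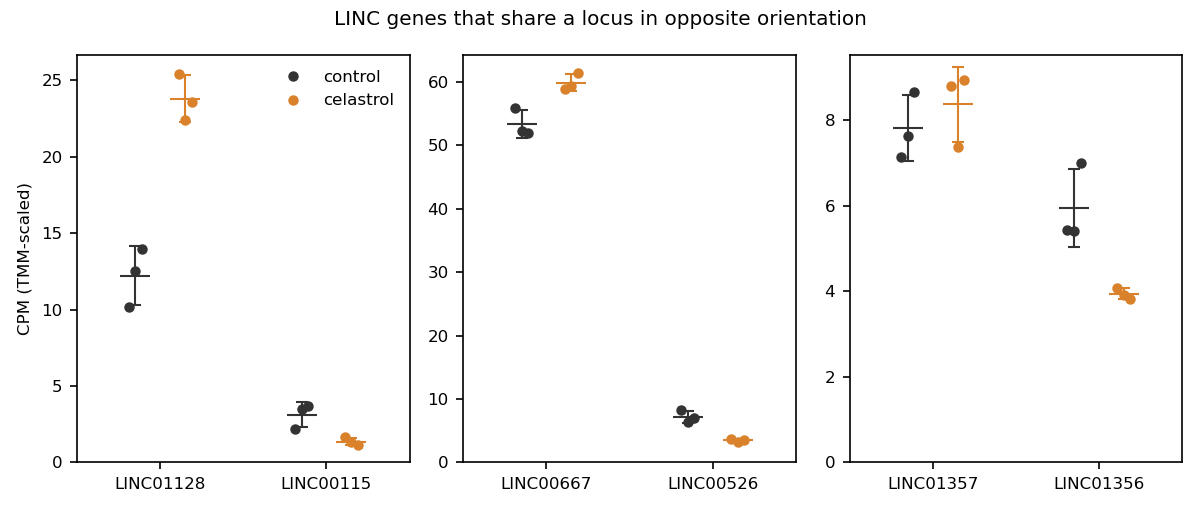
TMM-scaled CPM (y axis, from 0) of 3 pairs of LINC genes that lie together in opposite orientation; points are libraries, horizontal marks are means and bars are SD (n = 3 wells). LINC00115, LINC00526 and LINC01356 were lower with celastrol in every library, while LINC01128 was higher and LINC00667 and LINC01357 changed little.

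The nearest coding genes were called in both directions beside LINC genes that rose and beside LINC genes that fell. A start was known for 100 LINC genes, and the nearest coding gene was tested for 86, at a median distance of 68617.5 bases between starts over the 100. Beside LINC genes that rose, 6 of 22 neighbours rose, 4 fell and 12 did not pass the test. Beside those that fell, 4 of 16 rose, 3 fell and 9 did not pass. Beside the uncalled ones, 13 of 48 rose, 15 fell and 20 did not pass. Of all coding genes with a mean of at least 50 counts, 26.8% rose and 27.6% fell. Across the 86 pairs, which cover 83 different coding genes measured in the same libraries, Pearson's r of the log2 fold changes was -0.05 and Spearman's rho -0.10, given as a description. Of 14 tested neighbours within 10000 bases, 5 had the sign of their LINC gene.

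Among the neighbours of LINC02806, the 9 largest rises, the 9 largest falls and the 6 highest control FPKM, CSNK1D, which encodes casein kinase 1 delta, fell (-0.33, edgeR adjusted p = 0.000231) beside LINC01970. ZNF14, a zinc finger gene, rose (0.76, adjusted p = 0.0012) beside LINC00663, in the opposite direction to it. SAMD11, the nearest coding gene to both LINC01128 and LINC00115, fell (-0.73, adjusted p = 0.00742). ZNF33B, 163079 bases from LINC00839 between starts, rose as that gene did (0.46, adjusted p = 0.00206). SMUG1, a uracil DNA glycosylase gene 62937 bases from LINC02381, rose (0.39, adjusted p = 0.0082) where LINC02381 fell. NTMT1, an N-terminal methyltransferase gene, fell (-0.35, adjusted p = 0.00283) beside LINC00963, at 120212 bases. XRCC5, the gene of the Ku80 repair protein, rose slightly beside LINC01963 (0.17, adjusted p = 0.0192), and NBPF11 beside LINC02806, at 126987 bases (0.29, adjusted p = 0.0485). Apart from NQO2, the other neighbours of these genes did not pass the test, were not tested or were not located. Of other pairs, chosen after their values were seen, ZNF703 fell as LINC01605 did, 141568 bases away (-0.45, adjusted p = 0.00084). CAPRIN2 (-0.91), MCF2L2 (-1.67) and SOX9 (-0.52) fell where LINC00941, LINC00888 and LINC00673 rose, with starts 40730, 18989 and 471784 bases apart. Beside means here only the nearest coding start, which is often far away. A link within these pairs was not tested.

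**Figure D5:**
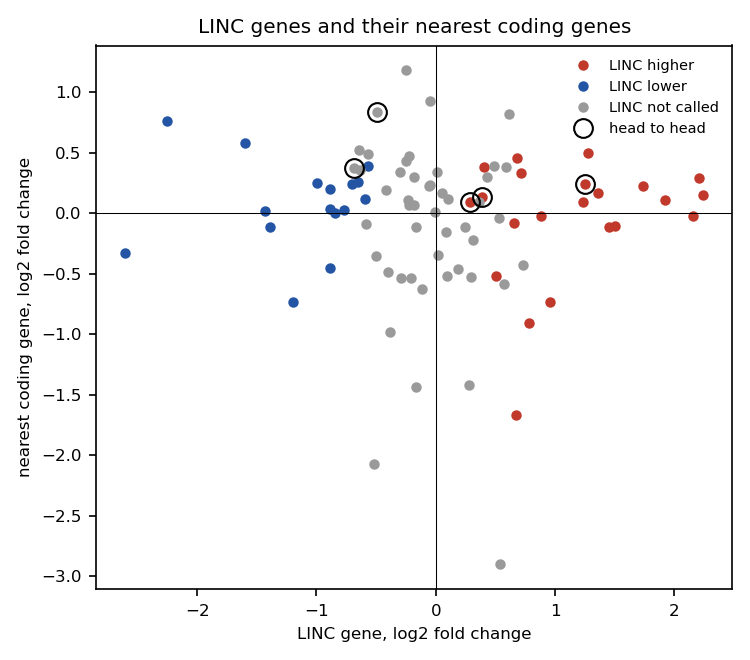
Log2 fold change of 86 LINC genes (x axis) and of their nearest coding genes (y axis), coloured by the call of the LINC gene, with rings around 5 head-to-head pairs. The points form no line, with coding genes above and below 0 beside LINC genes of each call (Pearson's r -0.05).

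Starts lay head to head within 1000 bases of a coding gene's start in 5 cases. LINC01547, 116 bases from SLX9, a ribosome biogenesis gene, had 5.45, 4.78 and 6.54 CPM with celastrol and 3.14, 1.76 and 2.13 CPM in controls, and rose (1.25 ± 0.23, edgeR adjusted p = 0.00026). SLX9 went from 37.6 to 44.4 CPM, a rise of 0.24 (adjusted p = 0.0397). LINC01786 was at -0.69 without passing the test while UBE2J2, a ubiquitin-conjugating enzyme gene, rose by 0.37 (adjusted p = 0.000353). LINC00205 rose by 0.29 with overlapping groups (adjusted p = 0.0399) beside POFUT2 at 0.09, and LINC01521 by 0.39 (adjusted p = 0.0109) beside PATZ1 at 0.13, neither neighbour passing the test. In the fifth pair LINC01560 was at -0.49 and ZNF41 at 0.84, and neither passed the test. The start window of LINC01547, at chr21:44939864-44940163 on the minus strand (RefSeq, GRCh38.p14), is shown as the head-to-head gene with the largest change. It holds no match to the 8 motifs, and 76.3% of its bases are G or C.
LINC01547: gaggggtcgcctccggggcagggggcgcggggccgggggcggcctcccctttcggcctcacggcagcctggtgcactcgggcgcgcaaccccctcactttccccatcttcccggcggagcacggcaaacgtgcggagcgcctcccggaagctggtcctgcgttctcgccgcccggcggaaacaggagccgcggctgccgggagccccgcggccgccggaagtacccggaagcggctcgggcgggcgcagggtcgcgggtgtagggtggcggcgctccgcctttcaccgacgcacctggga

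Among LINC genes close to developmental regulators, LINC00261 lies 6813 bases from FOXA2, an endoderm transcription factor gene. FOXA2 fell (-0.58, edgeR adjusted p = 2.58e-05) and LINC00261 was at 0.57 (adjusted p = 0.138), with 86.1% of its exon bases shared with another gene on the same strand. LINC02086 was at 0.61 (adjusted p = 0.0879) and its neighbour HOXB7, a homeobox gene, rose by 0.82 (adjusted p = 1.15e-05). LINC01089 was at -0.05 (adjusted p = 0.86) while SETD1B, a histone methyltransferase gene whose start is 1234 bases away, rose from 31.8 to 60.7 CPM (0.93, adjusted p = 2.82e-07). These 3 were chosen after their values were seen.

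RefSeq start windows of the 300-base form above were available for 75 LINC genes (91 windows) and compared with all 35116 windows, both strands searched. The C/EBP and ATF element TGATGNAA was in 4.4% of LINC windows and 3.62% of all, the antioxidant core TGACNNNGC in 19.8% and 13.3%, AP-1 TGANTCA in 8.79% and 7.71%, and the E-box CACGTG in 8.79% and 7.26%. The heat shock motif GAANNTTC was in 7.69% and 6.77%, the NF-kB site in 4.4% and 11.3%, TATAAA in 15.4% and 11.5%, and CCAAT in 46.2% and 34.6%. The median GC share was 61.0% in LINC windows and 58.7% in all, with a median of 18 and 14 CpG dinucleotides. It was 62.7% for 19 windows of LINC genes that rose and 68.3% for 16 of those that fell. In these 19 and 16 windows the antioxidant core was in 10.5% and 25%, AP-1 in 10.5% and 6.25%, and TGATGNAA in 5.26% and 0%. The E-box was in 0% and 25%, GAANNTTC in 5.26% and 6.25%, and the NF-kB site in 0% and 6.25%. TATAAA was in 21.1% and 0%, and CCAAT in 52.6% and 50%. These shares are descriptions of letters in the windows and show no binding.

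Reads may be shared between LINC genes and other genes. At least 10% of exon bases were shared with another gene on either strand in 18 LINC genes, of which LINC01116 rose and LINC00526, LINC01356, LINC01011 and LINC00707 fell. Of 89 LINC genes matched by name to GENCODE, 12 had copies of at least 98% identity over at least 10% of their length. LINC01145 and LINC00623 were covered completely, and LINC01106 and LINC01123 were covered at 96.2% and 94.8%, largely by each other. LINC01106 fell (-0.89 ± 0.26, edgeR adjusted p = 0.00789), with counts that are therefore uncertain.

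For comparison, a list of 63 long noncoding RNAs named otherwise was drawn up with earlier results of these data known, and 43 were tested. Of these 13 rose and 15 fell (65.1% called, against 48.4% of all genes), and their median log2 fold change was 0.27, against -0.00024 over all genes. NRAV, which restrains antiviral gene expression, rose from 3.24 ± 0.30 to 8.13 ± 0.28 CPM (1.33 ± 0.17), and MIR22HG, the host of the microRNA miR-22, from 6.62 ± 3.01 to 16.2 ± 1.37 CPM (1.29 ± 0.25). LINC-PINT, an RNA induced by p53 whose symbol falls outside the numbered LINC names, fell from 33.3 ± 12.5 to 5.31 ± 0.52 CPM (-2.65 ± 0.31, edgeR adjusted p = 0.000482). HOTAIRM1, from the HOXA cluster, fell from 24.0 ± 2.13 to 11.7 ± 0.54 CPM (-1.03 ± 0.11). TINCR, which fell, is listed as coding in the deposited table.

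Genes for nuclear and cytoplasmic RNA decay and for Integrator were read as lists of proteins that act on noncoding RNA. Of 31 decay genes, 10 rose and 4 fell, with a median log2 fold change of 0.07. The share called was 45.2%, against 48.4% of all genes and 54.4% of coding genes with a mean of at least 50 counts. UPF2 (0.67 ± 0.09), which acts in nonsense-mediated decay, and ZCCHC8 (0.65 ± 0.09), a subunit of the nuclear exosome targeting complex, rose most. Also among the 10, and named after their values were seen, were SMG1, SMG5 and SMG6 (0.32 to 0.50), which with UPF2 belong to nonsense-mediated decay. ZFC3H1 (-0.63 ± 0.09), which links polyadenylated nuclear RNA to the exosome, and the exosome subunit gene EXOSC7 (-0.29 ± 0.08) fell. The catalytic subunit genes DIS3 (0.07) and EXOSC10 (0.28) differed in that only EXOSC10 passed the test, and the difference between them was not tested. Of 14 Integrator genes tested, 5 rose and 3 fell (57.1% called, against 48.4% of all genes), with a median of 0.06. INTS7 (1.08 ± 0.11) and INTS5 (0.76 ± 0.13) rose most, and INTS8 (-0.45 ± 0.09) and INTS12 (-0.39 ± 0.13) fell most.

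LINC genes had a median of 150 counts per library, against 844 over all genes tested. The median coefficient of variation within the celastrol group was 12.8% for LINC genes and 6.41% for all genes with a mean of at least 50 counts, and within controls 14.7% and 8.56%. Of the 26 LINC genes that rose, control replicate 1 was the highest control in 21, and among all 46 called it was the control nearest to the celastrol libraries in 29 (63.0%, against 56.0% of all genes called). The share for the 21 was not taken over all genes called higher. Without control replicate 1, 32 LINC genes were called higher and 16 lower. Over all genes 4043 were then higher and 4067 lower, against 3634 and 3815 with all libraries. Called by edgeR with overlapping groups were 3 LINC genes, LINC00205, LINC01410 and LINC02575, and 15 had groups apart without passing the test.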

How the data were processed

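RNA of 6 wells was sequenced after poly(A) selection with a dUTP strand-marking protocol, per the labels' protocols, so RNAs without a poly(A) tail are under-read. The submitters' processing notes list StringTie 2.1.6, HISAT2 2.2.1 and cutadapt 1.9, besides edgeR and DESeq2, and build hg38, without roles. The sources used here state neither the annotation nor the use of strand in counting. The deposited counts are whole reads per gene, and the deposited FPKM values hold the same counts scaled by the authors by library total and gene length (20198 of 20198 genes agreed within 1e-06). Counts were filtered with filterByExpr, scaled by TMM and tested with edgeR 4.0.16 (R 4.3.3), group only, with Benjamini-Hochberg adjustment over 15387 genes. The standard error is the log2 fold change divided by the root of F. On simulated data for celastrol against control (15185 genes tested), 71.2% of 1.5-fold, 74.2% of 2-fold and 95.3% of 4-fold changes were recovered, and 15 of 172 calls were false. Only 66, 66 and 64 genes, drawn from genes of all kinds, were changed there, whereas 7449 genes were called in the data. These rates may therefore not hold for the data or for LINC genes. The members and lists were chosen with earlier results of these data known. Named genes are LINC02806, the 9 largest called changes in each direction, the 6 highest control FPKM, the 3 genes on each side of the count minimum, 2 genes per direction of each list, and their coding neighbours; others were chosen after their values were seen or belong to a group given in full. Neighbours were sought by start among coding genes of the table, with RefSeq starts and, where missing, GENCODE starts. Copies were sought with blastn 2.17.0. Counting intervals were not used, since the spread between wells is larger. Replicate numbers were not used to pair the wells in the main test. Correlations of same-numbered deviations were small, at 0.058, 0.055 and 0.034, and those of other numbers ran from -0.063 to 0.0053. Alternatives tried were RLE and library-size scaling, no filter or 1 CPM, DESeq2 1.42.0, limma 3.58.1, log2 FPKM with pseudocounts of 1 and 0.1, a replicate block, other membership minimums and leaving libraries out.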

Additional observations from a re-analysis of the deposited data

How the results depend on the processing

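Over 16 alternative scalings, filters, tools and libraries left out, 18 LINC genes were called higher and 11 lower in each, and no called LINC gene was called in the opposite direction. The same count was not made over all genes. Leaving out single libraries gave 21 to 32 LINC genes higher and 15 to 17 lower (all genes 2932 to 4043 and 3145 to 4067). Leaving out both celastrol replicate 2 and control replicate 1 gave 33 and 17 (all genes 3941 and 4024). The replicate block gave 26 higher and 19 lower (all genes 3831 and 3928), against 26 and 20 without it, and it ended the call of LINC01569 (adjusted p = 0.0568), which 8 other alternatives also ended. Each library correlated best with its own number, a hint from the data only. With a minimum of 100 counts, 22 of 71 LINC genes were higher and 12 lower, with a median log2 fold change of 0.095. Without LINC genes that share exons or have near-identical copies, an alternative added after seeing the data, 25 of 78 were higher and 12 lower, with a median of 0.097; these still hold the members not matched to GENCODE, LINC02806 among them, which were not checked. In both the set itself is smaller. The shares called were 47.9% and 47.4%, against 48.4% of all genes tested, to which these limits were not applied. LINC00963 changed sign to -0.011 without celastrol replicate 1 and to -0.050 without control replicate 2, and LINC01278 to 0.011 without control replicate 2; leaving out single libraries gave -0.050 to 0.099 and -0.092 to 0.011. Neither is called, and the cause was not tested. Limma on log2(FPKM + 1) gave smaller changes for scarce genes, -0.89 for LINC01970. Scaling by library size alone moved the median of all genes by 0.041 and gave 4170 genes higher and 3382 lower (limma on log2(FPKM + 1), 4007 and 3257). Of LINC genes with a mean of 50 to 100 counts, 12 of 35 were called (34.3%, and 34.3% of all genes in that range). Of those with at least 300 counts, 15 of 31 were called (48.4%, against 56.2% of all genes in that range).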
